A study of Mus musculus with 46 samples.

Results

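Transcript levels of 10 genes of the BCL2 family were followed through bulk RNA sequencing of mouse synovial sarcomas with and without disruption of BAF complex subunits. The 10 genes (Bcl2, Bcl2l1, Bcl2l2, Mcl1, Bax, Bak1, Bcl2l11, Bbc3, Pmaip1 and Bid) were chosen by name from 56854 genes present in both count tables, and all 10 were counted in all 46 tumor libraries. The study asked how tumors driven by SS18::SSX depend on the BAF subtypes, using conditional alleles of Pbrm1 (a subunit particular to PBAF) and of Arid1a and Arid1b (subunits of canonical BAF, CBAF). Every animal expressed the human fusion SS18::SSX2 (hSS2) or SS18::SSX1 (hSS1) from the Rosa26 locus after TATCre protein was injected into the limb shortly after birth. The hSS2 table held 13 control tumors, which carried the fusion with no floxed subunit gene, 8 tumors homozygous for floxed Pbrm1 (Pbrm1-fl), 8 for floxed Arid1a (Arid1a-fl) and 8 for floxed Arid1b (Arid1b-fl). The hSS1 table held 5 control and 4 Pbrm1-fl tumors. One tumor gave 1 library, the Cre was an injected protein and not a cell-type-specific transgene, and each sample was a whole tumor piece with whatever host cells it held, so fewer cells of a type and less RNA per cell cannot be told apart. The mice were of a mixed strain (CB57Bl/6-svJ) and a few months old, with no age given per group in the sources used here.

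The BCL2 family sets whether the outer mitochondrial membrane stays intact. Anti-apoptotic members (BCL2, BCL-XL from Bcl2l1, BCL-W from Bcl2l2, and MCL1) hold the effectors BAX and BAK (from Bak1) in check, and BH3-only proteins (BIM from Bcl2l11, PUMA from Bbc3, NOXA from Pmaip1, and BID) bind the anti-apoptotic members or the effectors and push toward pore formation, cytochrome c release and caspase activation. Strong BCL2 protein staining is a long-known feature of human synovial sarcoma. Much of the family's control acts on protein stability and binding, which transcript counts do not see.

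Libraries held between 10137668 and 21294657 counted reads, with the 9 hSS1 libraries at 10137668 to 14130024. As a check of the labels, Pbrm1 was at 95.1 to 139.6 CPM (counts scaled to library size) in the 8 hSS2 Pbrm1-fl tumors against 170.1 to 315.6 CPM in hSS2 control, and Arid1a at 230.4 to 277.9 CPM in Arid1a-fl. The library labelled hSS2 control replicate 9 stood at 238.9 CPM of Arid1a, inside the range of the Arid1a-fl tumors, whereas the other control tumors reached 433.7 CPM or more. Arid1b was at 109.9 to 352.2 CPM in Arid1b-fl against 226.7 to 689.8 CPM in hSS2 control, so these groups overlapped. In hSS1, only Pbrm1-fl replicate 3 (95.2 CPM of Pbrm1) was as low as the hSS2 Pbrm1-fl tumors. The other hSS1 Pbrm1-fl tumors held 198.6, 214.8 and 238.8 CPM, against 258.5 to 357.9 CPM in hSS1 control. Of the 8 synovial sarcoma marker genes, 8 averaged at least 1 CPM in every group except hSS2 Arid1a-fl, where 7 did.

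Promoter sequences are shown for the members on which the results below turn: Bcl2l11 and Bcl2, which had the largest negative fold changes in hSS2 Pbrm1-fl tumors, and Bak1, the member higher in hSS2 Arid1a-fl tumors. Each runs 5′ to 3′ from 250 bases before to 50 bases after a RefSeq transcription start (build GRCm38.p6). Capitals mark GC boxes, GGGCGG on either strand, where overlapping matches are merged.
Bcl2l11, chr2:128125788-128126087, plus strand: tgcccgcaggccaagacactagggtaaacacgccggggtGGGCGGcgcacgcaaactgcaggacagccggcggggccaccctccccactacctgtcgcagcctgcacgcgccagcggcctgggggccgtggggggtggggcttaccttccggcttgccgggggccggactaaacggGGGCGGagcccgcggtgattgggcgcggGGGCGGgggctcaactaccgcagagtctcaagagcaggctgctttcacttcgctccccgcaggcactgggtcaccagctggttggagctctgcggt
Bcl2, chr1:106714241-106714540, minus strand: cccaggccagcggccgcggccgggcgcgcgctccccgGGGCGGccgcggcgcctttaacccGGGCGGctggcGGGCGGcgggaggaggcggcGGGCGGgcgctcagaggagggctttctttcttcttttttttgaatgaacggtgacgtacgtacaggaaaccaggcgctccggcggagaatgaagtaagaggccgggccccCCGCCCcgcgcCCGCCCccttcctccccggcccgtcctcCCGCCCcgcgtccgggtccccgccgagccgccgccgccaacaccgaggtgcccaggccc
Bak1, chr17:27028578-27028877, minus strand: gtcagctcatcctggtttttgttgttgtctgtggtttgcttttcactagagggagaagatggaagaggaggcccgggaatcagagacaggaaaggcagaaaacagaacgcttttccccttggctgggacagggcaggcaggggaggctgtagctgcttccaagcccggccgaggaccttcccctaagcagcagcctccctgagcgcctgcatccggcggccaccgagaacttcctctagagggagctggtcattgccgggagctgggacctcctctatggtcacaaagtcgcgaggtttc
The Bcl2 promoter held 7 GC box matches and 44 CG pairs, more CG pairs than 97.8% of the 32851 promoters of the same length in the table. The Bcl2l11 promoter shown held 3 GC box matches, 27 CG pairs (more than 84.5% of promoters), and 1 match to the forkhead core GTAAACA. A further Bcl2l11 promoter in the table (chr2:128127325-128127624) held 3 GC box matches, 38 CG pairs and no forkhead core match. The Bak1 promoter held no GC box or forkhead core match and 11 CG pairs. Over all 32851 promoters, 35.7% held a GC box and 3.65% the forkhead core, both strands counted. Of the 10 members, 9 matched the table with 14 promoters in all, and the forkhead core was also present in 1 of 3 Bbc3 promoters. A match is only a run of letters in the window.

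The members spanned the range from weakly to strongly transcribed genes. Levels are given as normalized RPKM, the CPM after TMM scaling across the 46 libraries, divided by the exon length in kilobases, so that genes can be compared with each other. Mcl1, whose short-lived product is needed by many tissues, was the highest of the 4 anti-apoptotic members in 42 of 46 tumors and Bcl2l1 in the other 4. Bcl2 was the lowest of those 4 in 46 of 46 tumors on the RPKM scale, and in 36 of 46 by raw count, where its exon length of 9157 bases against 3418 for Mcl1 favors it. The group medians of Bcl2 RPKM ranked above 34.3% to 47.6% of the detected protein-coding genes, and those of Mcl1 above 91.5% to 93.1%. Of the 4 BH3-only members, Bcl2l11 was the highest in 34 of 46 tumors, Bbc3 in 9, Bid in 2 and Pmaip1 in 1. Pmaip1 was the lowest of all 10 members in 24 of 46 tumors, Bid in 12 and Bcl2 in 10. The lowest counts of single members were 13 for Pmaip1 and 31 for Bid, which limits what can be seen for them.

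**Figure D1:**
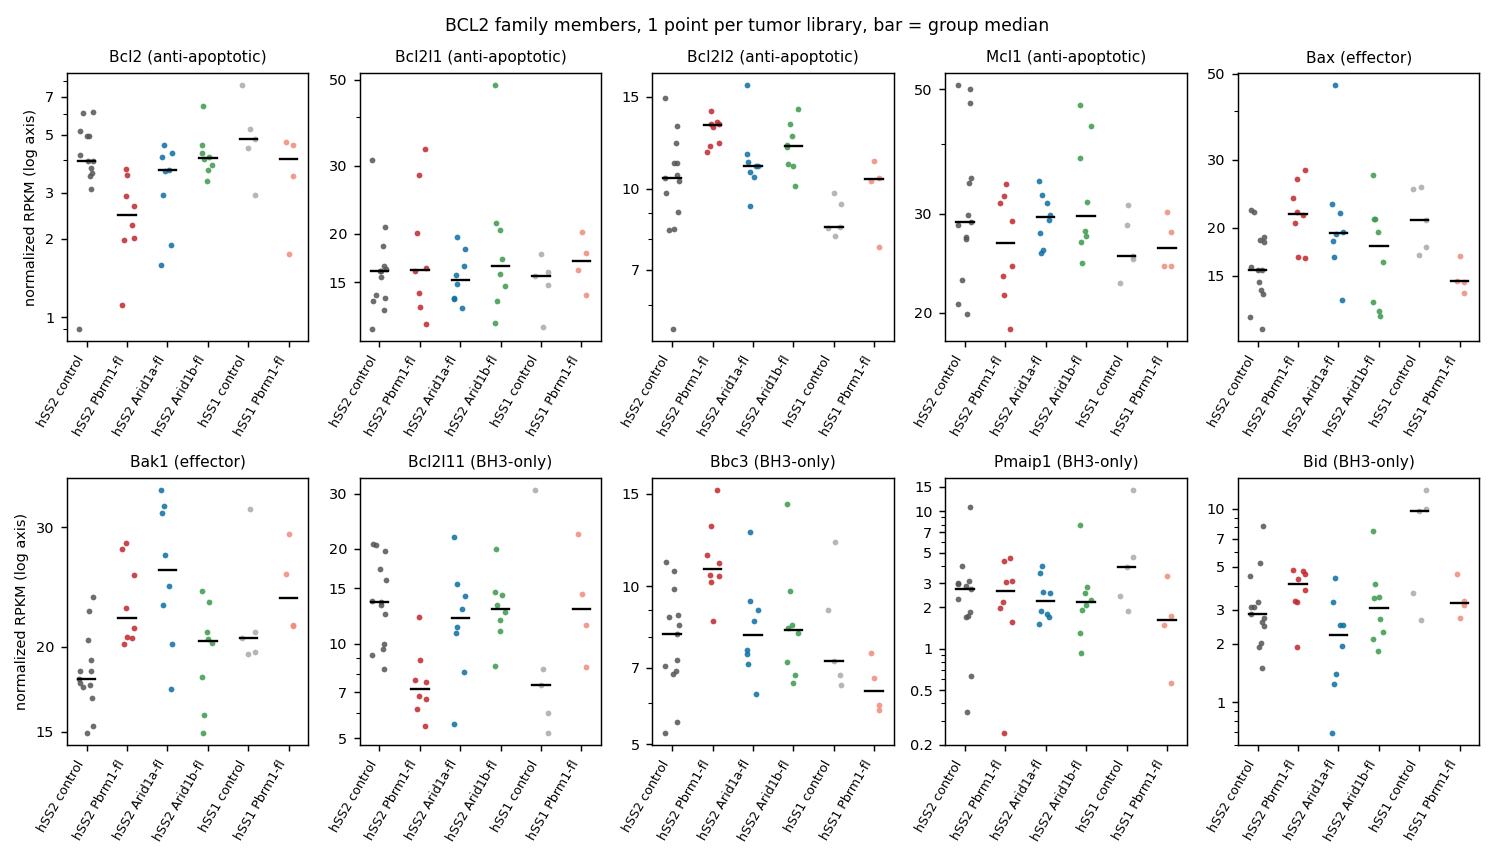
Normalized RPKM (log axis) of each of the 10 members in each of the 46 tumor libraries, by genotype group, with bars at the group medians. Bcl2l11 and Bcl2 of hSS2 Pbrm1-fl sit low (medians of 7.18 and 2.46 RPKM), Bak1 of hSS2 Arid1a-fl sits high (median of 25.96 RPKM), and single tumors stand far from their groups, such as Bcl2l1 at 48.3 RPKM in Arid1b-fl.

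A gene is called below when its adjusted p was under 0.05 (edgeR quasi-likelihood test, Benjamini-Hochberg adjustment over all genes tested). Between hSS2 Pbrm1-fl and hSS2 control, 3 of 10 members were called, against 7.35% of the 20083 genes tested. Bcl2l11 was lower (3.95% of genes were called lower) and Bbc3 and Bak1 were higher (3.4% called higher). The median log2 fold change was 0.21 over the 10 members and -0.00 over all genes. In hSS2 Arid1a-fl 1 of 10 members, Bak1, was called and was higher (3.17% of genes were called, 1.41% higher), with a median of -0.12 over the members and -0.04 over all genes. In hSS2 Arid1b-fl 0 of 10 members were called (0.0548% of genes), none of them reached an unadjusted p under 0.05 (1250 of 20083 genes did), and DESeq2 also called 0. In hSS1 Pbrm1-fl 0 of 10 were called (0.00562% of the 17786 genes tested), 2 had an unadjusted p under 0.05 (3059 of 17786 genes did), and DESeq2 called 0. The 3 hSS2 comparisons share their 13 control tumors.

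**Figure D2:**
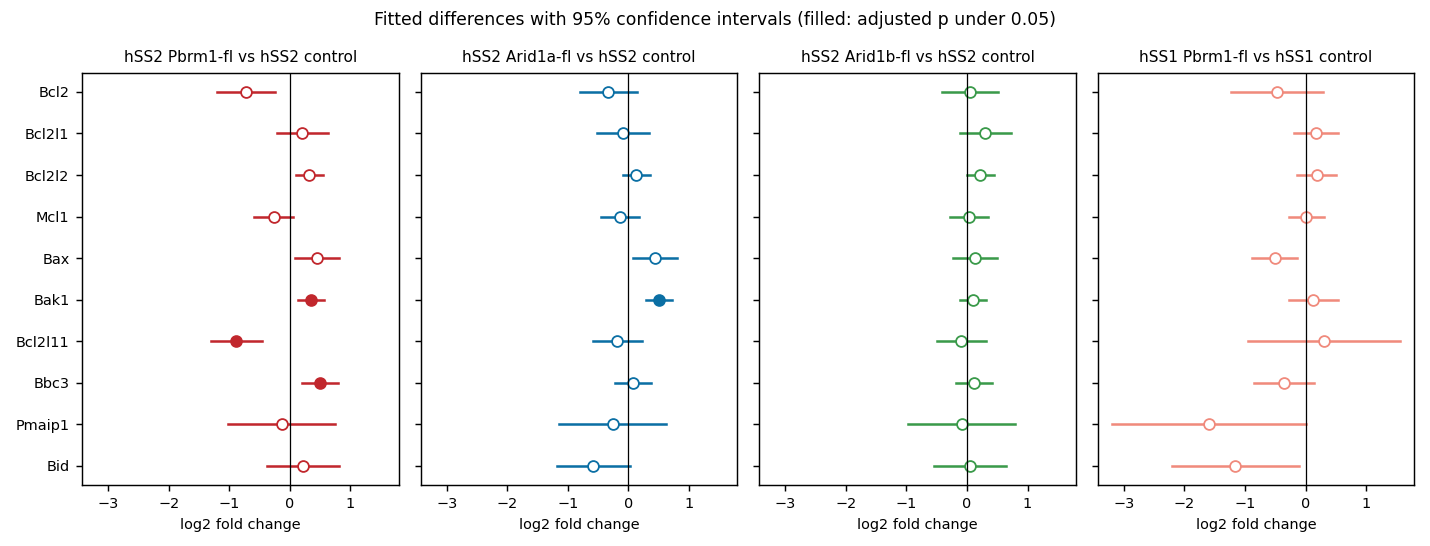
Log2 fold change (x axis) of each member (y axis) in each floxed group against the control of its fusion, with 95% confidence intervals from the fit. Filled circles are the called differences: Bak1, Bcl2l11 and Bbc3 in hSS2 Pbrm1-fl and Bak1 in hSS2 Arid1a-fl.

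Among the anti-apoptotic members, Bcl2 had the largest difference from control. Bcl2 lies on chromosome 1 (106538178 to 106714274, minus strand, GENCODE M21, GRCm38). Its level ran from 0.902 to 6.11 RPKM (median 3.97) in the 13 hSS2 control tumors and was 1.11, 1.98, 2.01, 2.25, 2.67, 2.92, 3.50 and 3.70 RPKM in the 8 hSS2 Pbrm1-fl tumors. All 8 Pbrm1-fl tumors fell below the control median, yet the groups overlapped, with the lowest control tumor (replicate 12, 0.902 RPKM) below every Pbrm1-fl tumor. The log2 fold change was -0.72 (SE 0.23, 95% interval -1.20 to -0.25) and missed the threshold (adjusted p = 0.0521 by edgeR). It was -0.82 with an adjusted p of 0.00911 by edgeR without control replicate 12, and was also past the threshold without control replicate 5 (-0.76, adjusted p = 0.0458), Pbrm1-fl replicate 1 (-0.81, adjusted p = 0.0322) or Pbrm1-fl replicate 8 (-0.82, adjusted p = 0.0394). DESeq2 called Bcl2 (-0.74, adjusted p = 0.0240). Bcl2 was past the threshold in only 4 of the 21 fits that left out 1 tumor and in 2 of 7 other settings. Adjusted p ran up to 0.107 and 0.0909 in these 2 sets of fits (edgeR). In Arid1a-fl, Bcl2 ran from 1.58 to 4.58 RPKM (median 3.66) with a log2 fold change of -0.33 (SE 0.23, interval -0.80 to 0.14), or -0.048 (SE 0.29, adjusted p = 0.938 by edgeR) against the 5 control tumors of the same mouse number range described below. In Arid1b-fl it ran from 3.34 to 6.45 RPKM (median 4.08, log2 fold change 0.04, interval -0.42 to 0.51). The order of hSS2 medians was Arid1b-fl, control, Arid1a-fl, Pbrm1-fl, and edgeR called no pair of groups for Bcl2.

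Bcl2l2, encoding BCL-W, went the other way from Bcl2 in hSS2 Pbrm1-fl. It ran from 5.39 to 14.9 RPKM (median 10.5) in hSS2 control and from 11.7 to 14.1 RPKM (median 13.2) in Pbrm1-fl, so that 10 of 13 control tumors lay below every Pbrm1-fl tumor and 1 above. Its log2 fold change of 0.32 (SE 0.11) was not called (adjusted p = 0.0703), except when control replicate 4, the highest control tumor, was left out (0.37, adjusted p = 0.0231, edgeR). Mcl1 ran from 19.9 to 50.8 RPKM (median 29.1) in hSS2 control and 18.7 to 33.9 RPKM (median 26.7) in Pbrm1-fl, with a log2 fold change of -0.27 (interval -0.59 to 0.05). The 3 highest control tumors for Mcl1, replicates 4, 13 and 11 (50.8, 50.05 and 47.3 RPKM), stood apart from the other 10, the next of which was at 34.7 RPKM. Bcl2l1 ran from 11.3 to 30.98 RPKM in hSS2 control, and its group medians in all 6 groups lay between 15.2 and 16.96 RPKM. Its log2 fold changes against control were 0.21 (interval -0.22 to 0.63) in Pbrm1-fl, -0.09 (-0.52 to 0.34) in Arid1a-fl and 0.30 (-0.12 to 0.73) in Arid1b-fl. The Pbrm1-fl value was 0.045 without Pbrm1-fl replicate 7, and against controls of the same mouse number range the Pbrm1-fl and Arid1a-fl values were 0.49 and -0.31. The Arid1b-fl value rested on replicate 5 (48.3 RPKM, the next tumor being at 21.4 RPKM) and was -0.04 without it.

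Of the effectors, Bak1 was higher in hSS2 tumors with either Pbrm1 or Arid1a disrupted, and it was the only member called in both comparisons by edgeR. Bak1 (chromosome 17, 27019810 to 27029009, minus strand) ran from 14.96 to 23.7 RPKM (median 17.9) in hSS2 control. The 8 Arid1a-fl tumors held 17.4, 20.2, 23.0, 24.6, 27.3, 31.5, 32.3 and 34.1 RPKM, of which 5 lay above every control tumor. The 8 Pbrm1-fl tumors held 20.2, 20.6, 20.7, 21.3, 22.8, 25.5, 27.9 and 28.4 RPKM, all above the control median and 3 above every control tumor. Bak1 rose in Arid1a-fl by 0.50 on the log2 scale (SE 0.11, adjusted p = 0.0156, edgeR) and in Pbrm1-fl by 0.35 (SE 0.11, adjusted p = 0.0414). Without Arid1a-fl replicate 8, the highest tumor, the Arid1a-fl value was 0.44 (adjusted p = 0.0661), and it was past the threshold without any 1 of the other 20 tumors of that comparison. The Pbrm1-fl call was weaker: it was past the threshold in 8 of the 21 fits that left out 1 tumor, with adjusted p up to 0.133 by edgeR, and was lost without Pbrm1-fl replicate 2, 3, 4, 6 or 8 or control replicate 2, 3, 8, 9, 10, 11, 12 or 13. It was past the threshold in 2 of 7 other settings, the DESeq2 test (adjusted p = 0.0481) and the 2-group fit (0.0430), and not without the filter (0.0833, edgeR). Between Pbrm1-fl and Arid1a-fl, Bak1 differed by -0.15 (interval -0.40 to 0.09), and Arid1b-fl lay close to control (14.9 to 24.2 RPKM, median 20.4, log2 fold change 0.10, interval -0.12 to 0.32). Bak1 overlaps Ggnbp1 on the opposite strand, and whether the counting used strand is not given in the sources used here. The 2 Ggnbp1 identifiers were not called in either comparison, with log2 fold changes of 0.33 and 0.13 in Pbrm1-fl and -0.06 and -0.48 in Arid1a-fl.

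Bax, the other effector, was not called in any comparison by edgeR. It ran from 10.9 to 22.3 RPKM (median 15.6) in hSS2 control and from 16.7 to 28.2 RPKM (median 21.7) in Pbrm1-fl, with all 8 Pbrm1-fl tumors above the control median. The log2 fold change was 0.44 in Pbrm1-fl (SE 0.18, adjusted p = 0.127) and 0.45 in Arid1a-fl (SE 0.18, adjusted p = 0.133, edgeR). The Arid1a-fl value leaned on replicate 1, at 46.7 RPKM against 12.98 to 23.02 RPKM in the other 7 tumors, and was 0.21 without it (adjusted p = 0.495). That tumor also had the highest summed level of 12 proliferation genes in its group (2388 CPM), and the part of proliferation in the Bax value was not tested.

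Bcl2l11, the gene for BIM, had the smallest adjusted p of the 10 members between hSS2 Pbrm1-fl and control. It lies on chromosome 2 (128126038 to 128162547, plus strand). In hSS2 control it ran from 8.32 to 20.7 RPKM (median 13.6), and in Pbrm1-fl it was 5.46, 6.19, 6.65, 6.81, 7.55, 7.63, 8.87 and 12.1 RPKM. All 8 Pbrm1-fl tumors lay below the control median and 6 of 8 below every control tumor, with 9 of 13 control tumors above every Pbrm1-fl tumor. Bcl2l11 fell by 0.88 on the log2 scale (SE 0.20, interval -1.30 to -0.47, adjusted p = 0.00636, edgeR). The call stood in all 21 fits that left out 1 tumor, the doubtful control replicate 9 included, with values from -1.01 to -0.83 and adjusted p from 0.00300 to 0.0186 by edgeR. It also stood in each of the 7 other settings that refitted the data, with values from -1.07 to -0.88. Among these, the same-range controls described below and the mouse number range as a covariate gave identical values, so they are not separate checks. In Arid1a-fl Bcl2l11 ran from 5.55 to 21.8 RPKM (median 12.1, log2 fold change -0.19, interval -0.59 to 0.22) and in Arid1b-fl from 8.51 to 19.99 RPKM (median 12.9, log2 fold change -0.09, interval -0.49 to 0.31). Counts per gene do not separate the BIM isoforms.

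Bbc3, the gene for PUMA, was higher in hSS2 Pbrm1-fl, opposite to Bcl2l11. It ran from 5.25 to 11.1 RPKM (median 8.10) in control and was 8.59, 10.2, 10.5, 10.5, 11.1, 11.46, 13.02 and 15.3 RPKM in Pbrm1-fl, all above the control median, with 8 of 13 control tumors below every Pbrm1-fl tumor. Bbc3 rose by 0.50 on the log2 scale (SE 0.15, adjusted p = 0.0302, edgeR). It was past the threshold in 15 of 21 fits that left out 1 tumor and was lost without Pbrm1-fl replicate 3, 7 or 8 or control replicate 9, 11 or 13 (adjusted p up to 0.0920), and in 3 of 7 other settings. In Arid1a-fl and Arid1b-fl the differences were 0.07 (interval -0.23 to 0.37) and 0.12 (interval -0.18 to 0.42). Bcl2l11 made up 33.9% to 59.4% of the summed RPKM of the 4 BH3-only members in hSS2 control (median 47.4%) and 18.2% to 44.4% (median 28.7%) in Pbrm1-fl. The summed BH3-only RPKM itself overlapped widely, at 28.5 ± 6.27 (SD, n = 13) in control and 25.5 ± 2.35 (SD, n = 8) in Pbrm1-fl.

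Pmaip1 and Bid varied widely between tumors of 1 group, and neither was called. Pmaip1, the gene for NOXA, ran from 0.348 to 10.7 RPKM in hSS2 control, and its coefficient of variation was 87.2% there against 13.6% for Bak1. Its log2 fold changes were -0.14 (interval -1.02 to 0.75) in Pbrm1-fl, -0.26 (-1.15 to 0.62) in Arid1a-fl and -0.09 (-0.97 to 0.79) in Arid1b-fl. Bid, whose product links death receptors to mitochondria, reached 8.14 RPKM in control (median 2.86). Its exons overlap Bcl2l13 on the opposite strand, so the unknown use of strand in counting limits Bid as well. In Arid1a-fl it ran from 0.690 to 4.39 RPKM (median 2.23), with 3 of 8 tumors below every control tumor and a log2 fold change of -0.58 (interval -1.19 to 0.03, adjusted p = 0.235, edgeR). Control replicate 13 held the highest Pmaip1 and the highest Bid of its group (10.7 and 8.14 RPKM).

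Levels were also summed by role. The ratio of summed anti-apoptotic to summed effector RPKM had a mean of 1.89 ± 0.538 over the 13 hSS2 control tumors (± gives the SD). It ran from 1.19 to 2.81 there. Over 8 tumors each, it was 1.38 ± 0.220 for Pbrm1-fl, 1.32 ± 0.344 for Arid1a-fl and 1.86 ± 0.250 for Arid1b-fl, so the ranges of an SD around the means overlapped between Pbrm1-fl or Arid1a-fl and control. The 4 control tumors that share the mouse number range of Pbrm1-fl held ratios of 1.187, 1.204, 1.301 and 2.403, of which 3 lay below the Pbrm1-fl mean. The anti-apoptotic sum alone was 63.6 ± 12.3 RPKM in control and 61.3 ± 4.72 and 59.9 ± 3.30 RPKM in Pbrm1-fl and Arid1a-fl. The share of Bcl2 in the anti-apoptotic sum had a median of 6.66% in control and 4.13% in Pbrm1-fl. These sums describe RNA and were not tested.

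Compared with each other, the floxed hSS2 groups had 1 member called, Bcl2l11. Over all 4 hSS2 groups 2 of 10 members were called, Bak1 (adjusted p = 0.00641) and Bcl2l11 (adjusted p = 0.0198, edgeR F-test), against 11.8% of genes. Between Pbrm1-fl and Arid1a-fl 1 of 10 members was called, against 12.3% of genes (5.5% lower): Bcl2l11 was lower in Pbrm1-fl by a log2 value of -0.70 (SE 0.22, adjusted p = 0.0342). Between Pbrm1-fl and Arid1b-fl 1 of 10 was called, against 4.37% of genes (2.72% lower), again Bcl2l11 at -0.79 (SE 0.22, adjusted p = 0.0320). Both calls were sensitive to single tumors, standing in 9 of 16 and 7 of 16 fits that left out 1 tumor, with adjusted p up to 0.105 and 0.0868 by edgeR. The first was lost without Arid1a-fl replicate 1, 3 or 4 or Pbrm1-fl replicate 4, 5, 6 or 7, and the second without Arid1b-fl replicate 2, 5 or 8 or any of Pbrm1-fl replicates 2 to 7. Without Arid1a-fl replicate 1, Bbc3 (0.53, adjusted p = 0.0316) and Bid (1.00, adjusted p = 0.0450) passed the threshold between Pbrm1-fl and Arid1a-fl, and without Arid1b-fl replicate 5 Bbc3 did so between Pbrm1-fl and Arid1b-fl (0.53, adjusted p = 0.0476, edgeR). Between Arid1a-fl and Arid1b-fl 0 of 10 members were called by edgeR or DESeq2 (0.0996% of genes by edgeR), and 1, Bak1, had an unadjusted p under 0.05 (0.40 on the log2 scale, SE 0.12, adjusted p = 0.169), as did 2517 of 20083 genes.

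The groups were not spread evenly over the range of mouse numbers in the labels. All Pbrm1-fl mice had numbers of 2000 or more, all Arid1a-fl mice under 1000 and all Arid1b-fl mice from 1000 to under 2000, whereas the 13 hSS2 control mice fell 5, 4 and 4 over the ranges from low to high. Against the 4 control tumors of its own range, Bcl2l11 in Pbrm1-fl was lower by a log2 value of -1.07 (SE 0.27, adjusted p = 0.0238, edgeR). Those 4 control tumors held 9.18 to 20.7 RPKM, so that their lowest value lay inside the Pbrm1-fl range. Bcl2 was at 4.18 to 6.05 RPKM in the same 4 tumors and at 1.11 to 3.70 RPKM in Pbrm1-fl. It differed by -1.02 on the log2 scale (SE 0.30) and was not called (adjusted p = 0.0584, edgeR). The share of all genes without overlap between these small sets was not counted. Bbc3 and Bak1 in Pbrm1-fl were no longer called against these controls, at 0.26 (SE 0.19, adjusted p = 0.615) and 0.29 (SE 0.15, adjusted p = 0.356), and Bax was at 0.16. Bbc3 in control tumors had a median of 6.80 RPKM in the low, 8.03 in the middle and 9.73 in the high range, so the control tumors that share the Pbrm1-fl range held the higher median. Bak1 in Arid1a-fl stayed called against the 5 control tumors of its range (0.65, SE 0.14, adjusted p = 0.00659), which held 14.96 to 18.4 RPKM. The lowest of them was control replicate 9, the tumor with an Arid1a level inside the Arid1a-fl range. No same-range fit left that tumor out. The 2 calls of Bcl2l11 between floxed groups were lost when each group was first set against its own range (-0.95, adjusted p = 0.145, and -1.10, adjusted p = 0.256, edgeR).

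**Figure D3:**
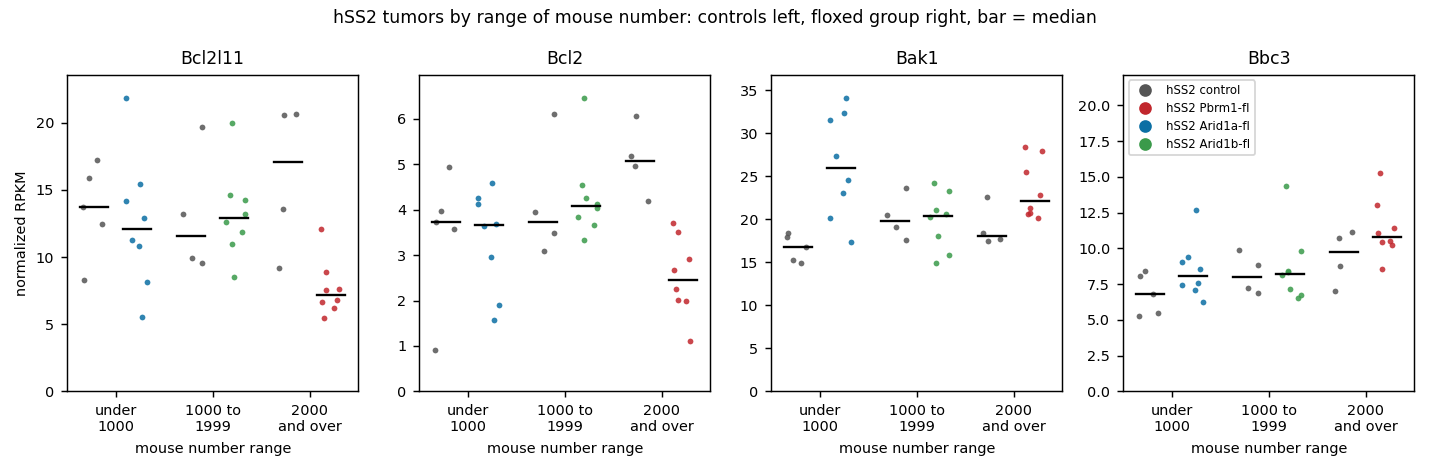
Normalized RPKM of Bcl2l11, Bcl2, Bak1 and Bbc3 in hSS2 tumors by range of mouse number, with control tumors on the left and the floxed group of that range on the right of each pair, and bars at medians. Bcl2 spans 1.11 to 3.70 RPKM in the 8 Pbrm1-fl tumors and 4.18 to 6.05 RPKM in the 4 control tumors of the same range, a difference that was not called. Bbc3 of the 2 sets overlaps.

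In the hSS1 background no member was called, and Bcl2l11 was not lower in Pbrm1-fl. Bcl2l11 was 5.19, 6.01, 7.39, 8.29 and 30.9 RPKM in the 5 hSS1 control tumors and 8.42, 11.47, 14.4 and 22.3 RPKM in the 4 hSS1 Pbrm1-fl tumors. All 4 Pbrm1-fl tumors lay above 4 of the 5 controls and below control replicate 4, and the log2 fold change was 0.30 (SE 0.56, interval -0.96 to 1.56, adjusted p = 0.818). Without control replicate 4 it was 1.09 (adjusted p = 0.132, edgeR). Bax was 17.01, 17.8, 20.9, 25.2 and 25.5 RPKM in control and 13.5, 14.5, 14.6 and 16.9 RPKM in Pbrm1-fl. It was the only member whose hSS1 groups did not overlap, as 6.86% of the genes tested did not, and it differed by -0.51 on the log2 scale (SE 0.17, adjusted p = 0.192). Bid was 2.65, 3.65, 9.73, 9.96 and 12.5 RPKM in control and 2.72, 3.16, 3.35 and 4.57 RPKM in Pbrm1-fl, with 3 control tumors above all others and a difference of -1.16 on the log2 scale (SE 0.46, adjusted p = 0.253, edgeR). Bcl2 was 2.94, 4.46, 4.82, 5.28 and 7.73 RPKM in control and 1.74, 3.48, 4.57 and 4.68 RPKM in Pbrm1-fl. The lowest of these was replicate 3, the hSS1 Pbrm1-fl tumor with the least Pbrm1 (95.2 CPM). The Bcl2 log2 fold change was -0.48 (interval -1.24 to 0.28), or -0.24 without that tumor and -0.26 without control replicate 4.

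Pmaip1 had the largest hSS1 fold change of the 10 members, and it was not called. Its level was 1.89, 2.42, 3.91, 4.62 and 14.3 RPKM in hSS1 control and 0.565, 1.49997, 1.72 and 3.39 RPKM in hSS1 Pbrm1-fl. All but 1 of the Pbrm1-fl tumors lay below every control tumor. The log2 fold change was -1.59 (SE 0.71, interval -3.19 to 0.01, adjusted p = 0.292, edgeR). Without control replicate 1, the tumor at 14.3 RPKM, it was -0.84, and against the 3 control tumors of the same mouse number range it was -0.72. Against those 3 tumors Bid was at -0.65 and Bcl2 at -0.71.

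Whether the Pbrm1 effect itself differed between the backgrounds was tested across all 46 tumors. Pbrm1 loss was unequal between them. Except for replicate 3 (95.2 CPM), the hSS1 Pbrm1-fl tumors kept 198.6 to 238.8 CPM of Pbrm1, against 95.1 to 139.6 CPM in hSS2 Pbrm1-fl. The part of this unequal loss in the values below was not tested. For 0 of 10 members did the difference (the effect in hSS1 minus that in hSS2) pass the threshold, against 2.86% of the 21725 genes tested, with 4 members and 4111 genes at an unadjusted p under 0.05. These 4 were Bbc3 at -0.86 (SE 0.26, adjusted p = 0.0585), Bax at -0.96 (SE 0.31, adjusted p = 0.0720), Bid at -1.38 (SE 0.54, adjusted p = 0.149) and Bcl2l11 at 1.17 (SE 0.45, adjusted p = 0.138, edgeR). Pmaip1 differed by -1.46 (SE 0.81, adjusted p = 0.326, edgeR) and was not among the 4. DESeq2 called 2 of these differences, Bbc3 (adjusted p = 0.0338) and Bax (adjusted p = 0.0453). Without hSS1 control replicate 4, the tumor with 30.9 RPKM, the Bcl2l11 difference was 1.98 (SE 0.38) and past the threshold (adjusted p = 0.00301). The Bbc3 difference passed without hSS2 Pbrm1-fl replicate 1 (-0.90, adjusted p = 0.0442) or hSS2 control replicate 1 (-0.89, adjusted p = 0.0456, edgeR). All 8 hSS2 Pbrm1-fl tumors lay above their control median for Bax, and all 4 hSS1 Pbrm1-fl tumors lay below theirs. The backgrounds were counted in separate tables, so levels of hSS1 and hSS2 tumors were not tested against each other.

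Some members varied together among tumors of the same group. Over the 37 hSS2 tumors, after the group means of log2 CPM were subtracted, Bax and Bbc3 had a Pearson correlation of 0.76 and Bcl2 and Bcl2l11 of 0.49 (Spearman 0.62), while Bcl2l2 and Bcl2l11 had one of -0.55. These tumors share a sequencing table and scaling, and the values are descriptions. Within single groups the Bcl2 and Bcl2l11 correlation was 0.25 in control (n = 13), 0.43 in Pbrm1-fl, 0.91 in Arid1a-fl and 0.71 in Arid1b-fl (n = 8 each), and for Bax and Bbc3 it was 0.66, 0.50, 0.89 and 0.91. Control replicate 12 had the lowest Bcl2 of all 46 tumors with an ordinary Bcl2l11 (13.7 RPKM). In Arid1a-fl, replicate 8 was lowest in both Bcl2 (1.58 RPKM) and Bcl2l11 (5.55 RPKM) and at the same time highest in Bak1 (34.1 RPKM) and Bcl2l2 (15.8 RPKM).

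**Figure D4:**
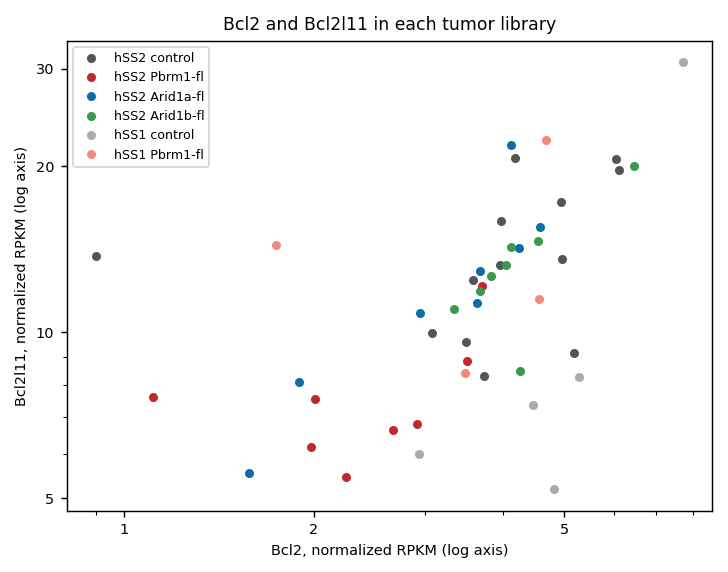
Bcl2 against Bcl2l11 (normalized RPKM, both axes log) in the 46 tumors, colored by group. The hSS2 Pbrm1-fl tumors lie to the lower left (Bcl2 of 1.11 to 3.70 and Bcl2l11 of 5.46 to 12.1 RPKM), and hSS2 control replicate 12 (0.902 RPKM of Bcl2) and hSS1 control replicate 4 (30.9 RPKM of Bcl2l11) stand apart.

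The genes whose levels followed each member most closely within hSS2 groups were ranked among 14166 protein-coding genes. Bcl2 was followed by Nes, the intermediate filament gene nestin (Pearson 0.82), Marcks (0.79) and Col15a1 (0.74). Over the 9 hSS1 tumors Col15a1 had a like value (0.75), Nes a lower one (0.23) and Marcks an opposite one (-0.60). For Bcl2l11 they were Usp6nl (0.77), Sostdc1 (0.73) and Eva1c (0.72), and for Bak1 Csnk2b (0.77), Lsm12 (0.76) and Pinx1 (0.75). Mcl1 was followed by Bach1 (0.89), Eif4ebp1 (0.84) and Pvr (0.84), and Bax by Ppp4c (0.92), Aprt (0.90) and Pgls (0.89). Those of Bbc3 were Parp1 (0.84), E2f2 (0.84) and Slc25a39 (0.83), with Parp1 at -0.84 over the hSS1 tumors. Bcl2l1 was closest to Setd5 (0.79), Bcl2l2 to Rnf31 (0.76), Bid to Fam117b (0.82) and Pmaip1 to Emb, with the lowest leading value of the 10 (0.63). The hSS1 values of the other leading genes were -0.13 (Setd5), 0.19 (Rnf31), 0.23 (Bach1), 0.41 (Usp6nl), 0.59 (Ppp4c), 0.64 (Csnk2b), 0.67 (Fam117b) and 0.73 (Emb).

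Beyond the members, 62 other genes of the apoptosis pathway were examined as fixed lists. Their calls were examined in the main fit only, and not under other settings or with 1 tumor left out. In hSS2 Pbrm1-fl, 2 of 58 tested were higher and 1 lower, against 7.35% of all genes called. Foxo1, a forkhead transcription factor gene, ran from 6.94 to 23.1 RPKM (median 8.56) in control and from 5.37 to 7.64 RPKM (median 6.42) in Pbrm1-fl and fell by 0.71 on the log2 scale (SE 0.18, adjusted p = 0.0135). Among the higher genes was Bad, a BH3-only gene (0.41, SE 0.12, adjusted p = 0.0268, edgeR). In Arid1a-fl 1 of 58 was called (3.17% of all genes), the caspase gene Casp6 (0.39, SE 0.10, adjusted p = 0.0332), and in Arid1b-fl 0 of 58 by edgeR (0.0548%), with 7 at an unadjusted p under 0.05. Between Pbrm1-fl and Arid1a-fl 3 of 58 were called (12.3% of all genes), all lower in Pbrm1-fl, among them Casp6 (-0.50, adjusted p = 0.00277) and Fbxw7, whose product marks MCL1 for breakdown (-0.46, adjusted p = 0.0469, edgeR). In hSS1 Pbrm1-fl 0 of 55 were called (0.00562%), with 9 at an unadjusted p under 0.05. The difference between the backgrounds was called for 1 of 59 (2.86% of all genes), Htra2, a mitochondrial protease gene (-1.20, SE 0.28, adjusted p = 0.0158, edgeR).

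Markers of other cell types moved with several of these values. The summed level of 10 skeletal muscle genes, all detected, ran from 13.1 to 50608 CPM (median 3673) in hSS2 control and from 7.85 to 16355 CPM (median 211.5) in Pbrm1-fl. Without the 3 most muscle-rich hSS2 tumors (control replicate 11 and Arid1b-fl replicates 1 and 3), Bcl2l11 in Pbrm1-fl was at -0.95 (adjusted p = 0.00362) and Bak1 in Arid1a-fl at 0.50 (adjusted p = 0.0314), both still called. Bbc3 and Bak1 in Pbrm1-fl then missed the threshold at 0.48 (adjusted p = 0.0537) and 0.32 (adjusted p = 0.0920, edgeR). Within hSS2 groups, Bax and Bbc3 had correlations of 0.73 and 0.64 with the summed proliferation genes, whose group medians were 450.7 CPM in control, 666.0 in Pbrm1-fl and 1004 in Arid1a-fl. Mcl1 had correlations of 0.75 with 6 adipocyte genes, 0.63 with 9 macrophage genes and 0.56 with the muscle genes. Bak1, Bcl2 and Bcl2l11 had lower correlations with the proliferation genes (0.43, 0.45 and 0.46). With the muscle genes, Bax, Bcl2l11 and Bbc3 had correlations of -0.57, -0.50 and -0.45, and with the adipocyte genes ones of -0.51, -0.40 and -0.53. With 7 endothelial genes, all detected (group medians of 248.0 CPM in control and 299.4 in Pbrm1-fl), Bax, Bbc3 and Bcl2 had correlations of 0.63, 0.55 and 0.43. Bcl2 had one of 0.46 with 5 B cell genes, against -0.91 over the 9 hSS1 tumors. The B cell sums had medians of 3.81 CPM in hSS2 control and 16.7 in Pbrm1-fl, and 2 of these genes averaged at least 1 CPM in each. With 7 T cell genes, Bcl2l2 and Mcl1 each had a correlation of 0.59. The part of these cells in the values of the members was not tested.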

How the data were processed

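RNA of 46 frozen tumors was depleted of ribosomal RNA and made into stranded libraries. The deposited counts are raw reads per Ensembl gene in 2 tables (hSS2, 37 libraries; hSS1, 9 libraries), made by the authors with STAR 2.7.11 and featureCounts 1.6.3 on mm10, per the submitters' processing notes. Whether counting used strand is not given in the sources used here.

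Groups came from the genotype labels. Replicates are separate mice, and no 2 libraries of the same group agreed within counting noise. Libraries of different groups were not compared in this way. Genes were filtered with filterByExpr, scaled by TMM and fitted with edgeR 4.0.16 (robust quasi-likelihood, R 4.3.3), with Benjamini-Hochberg adjustment over all genes tested and a threshold of 0.05. The 4 hSS2 groups shared 1 fit, hSS1 had its own, and all 46 libraries gave the difference between backgrounds. All p-values are two-sided. The fit was tested on simulated data.

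RPKM values were computed here from TMM-scaled counts and GENCODE M21 exon lengths. The tables use a newer annotation than M21 (2147 identifiers per table belong to a later series), so positions and lengths are those of M21. M21 exons of Bcl2l2 and Bax overlap the same-strand genes Gm20521 and Gm45808, which held at most 22 and 3 reads per library. On the opposite strand, exons of Bak1 overlap Ggnbp1, those of Bid Bcl2l13 and those of Bcl2 D630008O14Rik, which held at most 2 reads per library. Promoters came from RefSeq.

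The members and gene lists were chosen with earlier results of these data known. All 10 members were named. Of other pathway genes, up to 4 called higher and 4 lower per comparison were named by smallest adjusted p. Some of these are not reported here. Genes most like a member were the 3 with the highest correlation of group-centered log2 CPM (prior count 2) among genes averaging at least 1 CPM. Alternatives were a threshold of 0.01, DESeq2 1.42.0 and its size factors, no filter, 2-group fits, controls of the same mouse number range, that range as a covariate, removal of libraries above 10 times the table's median muscle level, and 76 fits leaving out 1 library each.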

Additional observations from a re-analysis of the deposited data

Results flagged for a closer look

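Of 50 groups of 4 to 10 tumors (the 10 members in 5 groups), 10 held 1 tumor that stood apart from the rest by Dixon's test at the 95% level. The 5% of groups given by chance holds for normally distributed values, and RPKM was not transformed here. Each of the 10 values was the highest of its group, and several came from 1 tumor, so 10 of 50 cannot be set against 5%. The same tumor, hSS2 Arid1b-fl replicate 5, stood apart for Bcl2l1 (48.3 RPKM, nearest 21.4), Bbc3 (14.4 RPKM, nearest 9.79), Pmaip1 (7.96 RPKM, nearest 2.82) and Bid (7.64 RPKM, nearest 4.07). It also had a summed level of 5 erythroid genes of 47399 CPM against a group median of 59.8 CPM, and the part of blood cells in its levels was not tested. In hSS2 Arid1b-fl replicate 8 Bcl2 was at 6.45 RPKM, with the nearest tumor at 4.55. In hSS2 Arid1a-fl, Bax of replicate 1 was at 46.7 RPKM (nearest 23.0) and Bcl2l2 of replicate 8 at 15.8 RPKM (nearest 11.7). In hSS1 control, Bcl2l11 of replicate 4 was at 30.9 RPKM (nearest 8.29), Bak1 of replicate 5 at 31.96 RPKM (nearest 21.1) and Pmaip1 of replicate 1 at 14.3 RPKM (nearest 4.62).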

How the results depend on the processing

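Of the single-gene values, 473 of 520 under the other settings and 1397 of 1500 with 1 library left out kept both direction and side of the threshold. The 6 called single-gene values stayed called in 28 of 42 fits under other settings and 80 of 116 with 1 library left out. Totals under other settings count same-range controls and the range covariate separately, although their hSS2 values were identical. The causes of the changes below were not tested. Members called between hSS2 Pbrm1-fl and control numbered 3, and from 1 to 4 over the other settings. The number was 1 at an adjusted p of 0.01, without the filter, with same-range controls or the range covariate, or without muscle-rich libraries. The 1 member called in Arid1a-fl became 0 at 0.01. The 1 between Pbrm1-fl and Arid1a-fl became 0 at 0.01, by range (either way) and in 2-group fits. The 1 between Pbrm1-fl and Arid1b-fl became 0 at 0.01 and by range, and 2 by DESeq2. The 2 over all hSS2 groups became 1 at 0.01 and with the covariate, and the 0 for the difference between backgrounds became 2 by DESeq2. With 1 library left out these counts ran from 1 to 4, 0 to 1, 0 to 2, 0 to 1, 1 to 3 and 0 to 1 in that order.

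Values that changed sign were all uncalled. With same-range controls (the covariate gave identical hSS2 values), Pmaip1 was 0.029 in Pbrm1-fl, and in Arid1b-fl Pmaip1 was 0.081, Bcl2l11 0.033 and Bak1 -0.020. Between Pbrm1-fl and Arid1a-fl Bbc3 was -0.048 and Mcl1 0.21, and between Pbrm1-fl and Arid1b-fl Bax was -0.050, Bid -0.48 and Bcl2l1 0.14. Between Arid1a-fl and Arid1b-fl Bbc3 was 0.21 and Bcl2l2 0.029, and in hSS1 Bcl2l11 was -0.051. Without muscle-rich libraries, Pmaip1 was 0.0034 and Mcl1 -0.030 in Arid1b-fl, Bid -0.0061 between Pbrm1-fl and Arid1b-fl, Bcl2l11 -0.078 in hSS1, and the Bcl2l1 difference between backgrounds 0.080. In hSS1 this setting left out control replicates 2 and 3, which were rich in muscle only relative to their own table. The hSS1 control tumors held at most 660.5 CPM of muscle genes, below the hSS2 control median of 3673 CPM.

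With 1 library left out, sign changes gave these ranges. In Pbrm1-fl, Pmaip1 ran from -0.30 to 0.21. In Arid1a-fl, Bbc3 ran from -0.029 to 0.13, Bcl2l1 from -0.15 to 0.014 and Pmaip1 from -0.40 to 0.11. In Arid1b-fl, Bbc3 ran from -0.046 to 0.17, Bax from -0.0046 to 0.20, Bid from -0.25 to 0.22, Bcl2l1 from -0.037 to 0.41, Pmaip1 from -0.58 to 0.26, Mcl1 from -0.074 to 0.11 and Bcl2 from -0.087 to 0.098. Between Pbrm1-fl and Arid1a-fl, Bax ran from -0.085 to 0.24 and Pmaip1 from -0.036 to 0.30, and between Pbrm1-fl and Arid1b-fl, Bcl2l1 from -0.26 to 0.23 and Pmaip1 from -0.21 to 0.42. Between Arid1a-fl and Arid1b-fl, Bbc3 ran from -0.15 to 0.12, Pmaip1 from -0.31 to 0.32 and Bcl2l11 from -0.26 to 0.037. Mcl1 in hSS1 ran from -0.045 to 0.075 and the Bcl2l1 difference between backgrounds from -0.14 to 0.15.

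Counts over all genes moved more. DESeq2 called 2282 in Pbrm1-fl (edgeR 1476), 1740 in Arid1a-fl (637), 18 in Arid1b-fl (11), 1575 between Pbrm1-fl and Arid1b-fl (878), 223 between Arid1a-fl and Arid1b-fl (20), 1244 in hSS1 (1) and 1160 between backgrounds (622). With same-range controls edgeR called 477, 1405, 0, 55, 0, 0 and 9 in that order, and 436 between Pbrm1-fl and Arid1a-fl (2468). At 0.01 it called 503, 26, 6, 271, 10, 0 and 61, and 1041. Without the filter Arid1a-fl gave 243, Arid1b-fl 27 and the backgrounds 402. Without muscle-rich libraries Arid1a-fl gave 285 and the backgrounds 65. In 2-group fits Arid1a-fl gave 159, Arid1b-fl 3, Pbrm1-fl against Arid1b-fl 527 and Arid1a-fl against Arid1b-fl 12. Over all hSS2 groups 2366 became 783 at 0.01 and 710 with the covariate. No paired analysis was made. The paper describes its tumor growth cohorts as littermates, but the labels give mouse numbers and no litter, so any shared litters were not modelled. Low counts limit Pmaip1 and Bid most.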
